A study of Homo sapiens with 267 samples.

Results

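MALAT1, NEAT1, GAS5, SNHG1, SNHG5, SNHG6, SNHG8, SNHG12, EPB41L4A-AS1 and PVT1 are long non-coding RNAs (lncRNAs), and their levels were followed here across single-cell RNA-seq libraries of K562, an established human erythroleukaemia cell line (CCL-243) that carries the BCR-ABL1 fusion. Members were the rows of the count table whose Ensembl identifiers map to these symbols, and all 10 symbols matched, of 63677 gene rows. Cells were captured on the Fluidigm C1 system and 263 libraries in 3 runs were used. The Hoechst run held 96 libraries of untreated cells stained with Hoechst 33342 and propidium iodide, labelled 90 to 92 under passages. The benzene run held 36 libraries of untreated cells stained with CellTracker Green and 35 of cells stained with CellTracker Orange and given 10 mM benzene for 3 h. The imatinib run held 51 untreated CellTracker Green libraries and 45 CellTracker Orange libraries of cells given 1 µM imatinib, an inhibitor of the ABL kinase, for 1 h. Cells of both CellTracker runs were labelled 20 to 22 under passages and also carried a dead cell stain. The labels write hours as the unit of these numbers, which were read as passage numbers. The labels did not mark fresh or DSP-fixed cells, bulk samples, empty sites or dead cells, so these were not told apart, and no culture was named, so each of the 5 groups counted as 1 sample. No test was therefore made between groups, and fold differences, counting intervals and spreads over libraries are given instead. Within a run the stain and the drug go together and cannot be told apart. The Hoechst run differs from the CellTracker runs in stain, cell lot, passage, read length and sequencer together. According to the paper, its fixed cells were also stored for longer, and cells stained as dead were sequenced in that experiment only. These differences between runs cannot be told apart either. The untreated Green groups of the benzene and imatinib runs share stain and passage label and differ by experiment.

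MALAT1 and NEAT1 lie next to each other on chromosome 11 and stay in the nucleus, where MALAT1 collects at splicing speckles and NEAT1 is the scaffold on which paraspeckles form. The other genes except PVT1 are hosts of small nucleolar RNAs (snoRNAs): their introns hold snoRNAs that guide the modification of ribosomal RNA, and the spliced host RNA is exported and often destroyed quickly when ribosomes meet its short reading frames. GAS5 was named for its accumulation in growth-arrested cells. EPB41L4A-AS1 runs antisense to EPB41L4A and contains SNORA13, and SNHG12 contains SNORD99. PVT1 lies beside MYC on chromosome 8 and is often copied with it in tumours.

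Library quality differed between runs. Depth was 50358 to 2043351 reads on genes per library. A library with more than 70% of its gene reads in its top 500 genes was set aside, which left 242 of 263 libraries, with 14 set aside in the Hoechst run, 6 in the benzene run and 1 in the imatinib run. Among the libraries kept, the median mitochondrial share of gene reads was 12.5% in the Hoechst run, 6.48% in the benzene run and 6.68% in the imatinib run, and the median number of genes with more than 2 reads was 7410.5, 5905 and 8022. The K562 markers GATA1, HBG1, HBG2, PRAME and TFRC were each found in at least 81 of 82, 60 of 65 and 94 of 95 libraries of the 3 runs. Levels below are CPM, the reads of a gene per 1000000 reads on all genes of that library without the ERCC spike-in rows, and are of kept libraries unless stated otherwise.

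MALAT1 was the most abundant member by reads, and the Hoechst run had far more of it than the CellTracker runs. In the Hoechst run the lowest, median and highest libraries had 1049, 7116 and 37901 CPM, the last being 3.79% of all gene reads of that library. In untreated Green libraries of the benzene run these values were 69.6, 1304 and 6865 CPM. In untreated Green libraries of the imatinib run they were 346, 740 and 5146 CPM. MALAT1 ranked 6 among all genes by summed reads in the Hoechst run, 48 in the benzene run Green group and 78 in the imatinib run Green group. The summed level was 8977 CPM (95% Poisson interval 8959 to 8995, counting error only), against 1707 (1695 to 1720) and 1154 (1145 to 1162), a log2 difference of 2.39 and 2.96. Of the 82 Hoechst libraries, 42 lay above all 31 benzene run Green libraries, which held for as many libraries in 0.480% of the genes measured in both groups, and 49 lay above all 50 imatinib run Green libraries (0.222% of genes).

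NEAT1 was also highest in the Hoechst run, at a lower level than MALAT1. In the Hoechst run its lowest, median and highest libraries had 47.4, 1263 and 7825 CPM. In Green libraries of the benzene run they had 1.59, 154 and 1396 CPM, and in Green libraries of the imatinib run 11.6, 224 and 1586 CPM. The groups overlapped, but 35 of 82 Hoechst libraries were above all Green libraries of the benzene run (0.869% of genes) and 31 above all Green libraries of the imatinib run (1.13%). The log2 difference of the sums was 2.44 and 2.00.

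Of the 10 members, 2 were more than 2-fold higher in the Hoechst run than in benzene run Green libraries (MALAT1 and NEAT1) and 1 was more than 2-fold lower (PVT1), where 26.7% and 11.8% of the 11052 genes measured were past that limit in these directions (38.4% either way). Against imatinib run Green libraries again 2 were higher (MALAT1 and NEAT1) and 1 lower (SNHG12), beside 20.6% and 13% of 11719 genes (33.6% either way). In imatinib run against benzene run Green libraries SNHG12 was higher and PVT1 lower, beside 19.9% and 11.9% of 11098 genes (31.8% either way). The members' counts were no higher than these background shares, and the median log2 difference of the members was 0.24, 0.26 and -0.03, beside 0.27, 0.13 and 0.13 for all genes. The 3 ratios share groups and are not independent. The markers of other cell types CD3D, CD3E, MS4A1, CD14 and COL1A1 summed to 0 to 581 CPM (median 109) in Hoechst libraries, 0 to 611 (median 0) in benzene run Green and 0 to 96.7 (median 0) in imatinib run Green libraries. CD3D led this list in the Hoechst run, with a median of 107 CPM. It was found in 68 of 82, 27 of 65 and 26 of 95 libraries of the 3 runs, whereas its partner CD3E was found in 0, 0 and 1, MS4A1 in none, CD14 in 0, 0 and 2, and COL1A1 in 3, 0 and 1. The part of these markers, and of the mitochondrial share, in the run differences was not tested.

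**Figure D1:**
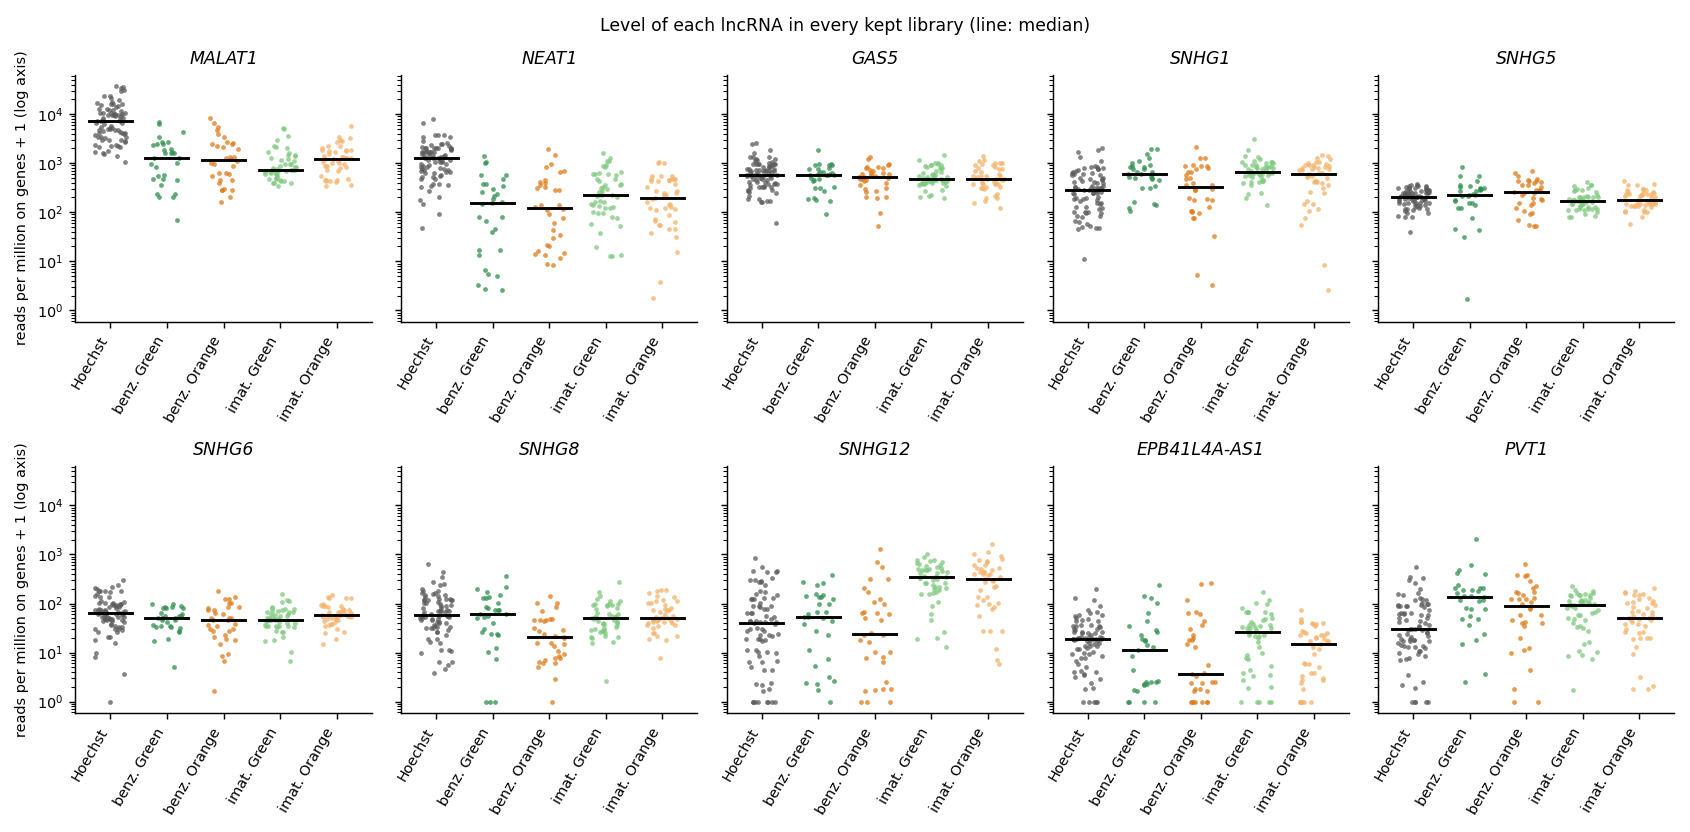
CPM plus 1 (log axis) of each lncRNA in every kept library, by group; each point is a library and the black line is the group median. MALAT1 and NEAT1 sit higher in the Hoechst run (medians 7116 and 1263 CPM) than in any CellTracker group, and SNHG12 sits higher in both groups of the imatinib run.

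SNHG12 was higher in imatinib run Green libraries than in the other untreated groups. Its lowest, median and highest libraries had 0, 39.9 and 845 CPM in the Hoechst run. In Green libraries of the benzene run they had 0, 52.7 and 380 CPM, and in Green libraries of the imatinib run 11.7, 341 and 1036 CPM. The imatinib-treated Orange libraries of the same run had a median of 309 CPM, so both groups of that run were high. The log2 difference of imatinib run Green against benzene run Green was 2.05 (0.91, inside the 2-fold limit, with scaling to the ERCC spike-ins), and 21 of 50 libraries were above all 31 of the other group (0.315% of genes). The log2 difference of the Hoechst run against imatinib run Green was -1.83 (-3.12 to -1.08 over the alternatives), with 25 of 82 Hoechst libraries below all 50 imatinib run Green libraries (1.88% of genes). Only 16.2% of genes had at least 1 Hoechst library below, which is impossible where a Green library has no reads of the gene. SNHG12 overlaps TRNAU1AP on the other strand and SNORD99 on its own, and the library type does not mark strand, so reads of these genes cannot be fully told apart.

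PVT1 had the opposite leaning, with its highest values in the benzene run. The lowest, median and highest libraries had 0, 29.4 and 542 CPM in the Hoechst run. In Green libraries of the benzene run they had 1.47, 136 and 2045 CPM, and in Green libraries of the imatinib run 0.764, 91 and 225 CPM. A single benzene run Green library held 32.1% of that group's PVT1 reads. The log2 difference of the Hoechst run against benzene run Green was -1.64, and -1.34 without the library of each group with the most PVT1 reads. For imatinib run Green against benzene run Green it was -1.33, and it was inside the 2-fold limit without those libraries (-0.87) and with each library given equal weight (-0.70).

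SNHG1, the host of a row of box C/D snoRNAs, was lower in the Hoechst run by sums without passing 2-fold (log2 -0.68 against benzene run Green and -0.79 against imatinib run Green), and past it with each library given equal weight (-1.04 and -1.34). With equal weight the median log2 difference of all genes was 0.62 and -0.18, and the share of all genes past 2-fold was not counted. Its libraries ran from 10.3 to 2010 CPM (median 289) in the Hoechst run, 104 to 1976 (median 609) in benzene run Green and 136 to 3059 (median 665) in imatinib run Green. The medians were lower in the Hoechst run, and the low tail was longer: 17 of 82 Hoechst libraries were below all benzene run Green libraries (0.860% of genes) and 21 below all imatinib run Green libraries (2.66%). At least 1 Hoechst library was below all Green ones for only 7.99% and 16.2% of genes, as none can be where a Green library has no reads. GAS5, SNHG5, SNHG6, SNHG8 and EPB41L4A-AS1 differed by at most 0.69 on the log2 scale between any 2 untreated groups. GAS5 medians were 569, 585 and 478 CPM in the Hoechst, benzene run Green and imatinib run Green groups, and SNHG5 medians were 205, 225 and 168 CPM. With scaling to the ERCC spike-ins, which moved the median of all genes by -1.07 for imatinib run against benzene run Green and by 0.70 for Hoechst against imatinib run Green, GAS5, SNHG5, SNHG6 and SNHG8 did pass 2-fold in at least 1 of these comparisons.

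Per kilobase of the canonical transcript, a rough way to compare genes, GAS5 had the highest mean level in all 3 runs, with a mean log2(CPM per kb + 1) of 9.51 ± 0.96 (SD over 82 libraries), 9.27 ± 0.96 (65) and 9.34 ± 0.76 (95). MALAT1, whose transcript of 10.4 kb is far longer than the 0.768 kb of GAS5, came right behind in the Hoechst run (9.33 ± 1.21) but was the fourth in the benzene run (6.72 ± 1.53) and the fifth in the imatinib run (6.61 ± 0.96). EPB41L4A-AS1 was last throughout, at 2.48, 1.93 and 2.31. Most neighbours in the order were closer than their spread: a gap larger than the mean SD of the pair separated MALAT1 from SNHG1 and SNHG5 from NEAT1 in the Hoechst run, SNHG1 from SNHG5 and MALAT1 from SNHG6 in the imatinib run, and no pair in the benzene run. These lengths are of 1 transcript per gene. For NEAT1 it was 22.7 kb, and a shorter transcript would place it higher. For GAS5 all annotated exons together span 4.93 kb. The order depends on this choice. In the Hoechst run the sums were 702 CPM for GAS5 and 8977 for MALAT1, whose exons span 10.4 kb. SNHG1, with exons of 3.98 kb, had higher sums than GAS5 in the Green groups (690 against 588 CPM, benzene run, and 743 against 557, imatinib run). Over all exons, GAS5 would thus not be first by sums in any untreated group.

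Detection, taken as more than 2 reads, was complete for MALAT1 and GAS5, which were found in every kept library of all groups. SNHG1, SNHG5, SNHG6, SNHG8 and NEAT1 were each missed in at most 3 libraries of any group. EPB41L4A-AS1 was found in 70 of 82 Hoechst libraries (85.4%, exact 95% binomial interval 75.8 to 92.2), 18 of 31 and 19 of 34 libraries of the benzene run Green and Orange groups, and 40 of 50 and 33 of 45 of the imatinib run groups. SNHG12 was found in 69 of 82 Hoechst libraries, 26 of 31 and 26 of 34 benzene run libraries and in all 95 imatinib run libraries. After thinning to 300000 reads, which 2 kept Hoechst libraries did not reach, SNHG12 was still found in 58 of 80, 22 of 31, 22 of 34, 50 of 50 and 43 of 45 libraries of the 5 groups.

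The spread between libraries set the members apart from each other. SNHG5, SNHG6 and SNHG8 varied little for their level. The SD of log2(CPM + 1) of SNHG5 was 0.60 in the Hoechst run and 0.61 in the imatinib run, where the 200 genes nearest in mean CPM had median SDs of 1.74 and 1.58, and only 0.5% and 1% of these had a smaller SD. In the benzene run its SD was 1.36 against 2.38, with 12% of genes below it. SNHG6 had SDs of 1.29, 1.20 and 0.80 against 2.41, 2.77 and 2.24 for genes of like level, with at most 1.5% of these genes below it in any run. SNHG8 had SDs of 1.51, 1.98 and 1.05, with 7%, 4% and 2% of genes of like level below it. MALAT1 (1.21, 1.55 and 0.97), NEAT1 (1.28, 2.53 and 1.83) and SNHG1 (1.42, 1.76 and 1.42) were at least as variable as the median gene of like level in each run, and SNHG1 and SNHG12 stood at the percentiles 93 and 90.5 in the imatinib run.

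Under the stain and drug labels no member was past 1.5-fold higher in either run. In the benzene run 2 of 10 were lower in Orange, benzene-labelled libraries (SNHG8 and PVT1), beside 19.7% of 9530 genes lower and 22.7% higher (42.4% either way). In the imatinib run 1 of 10 was lower in Orange, imatinib-labelled libraries (EPB41L4A-AS1), beside 11.1% of 10834 genes lower and 9% higher (20.1% either way). Markers of other cell types summed to medians of 0 and 0.777 CPM in Green and Orange libraries of the benzene run and of 0 in both groups of the imatinib run. The median log2 difference of the members was 0.06 in both, beside 0.04 and -0.02 for all genes.

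**Figure D2:**
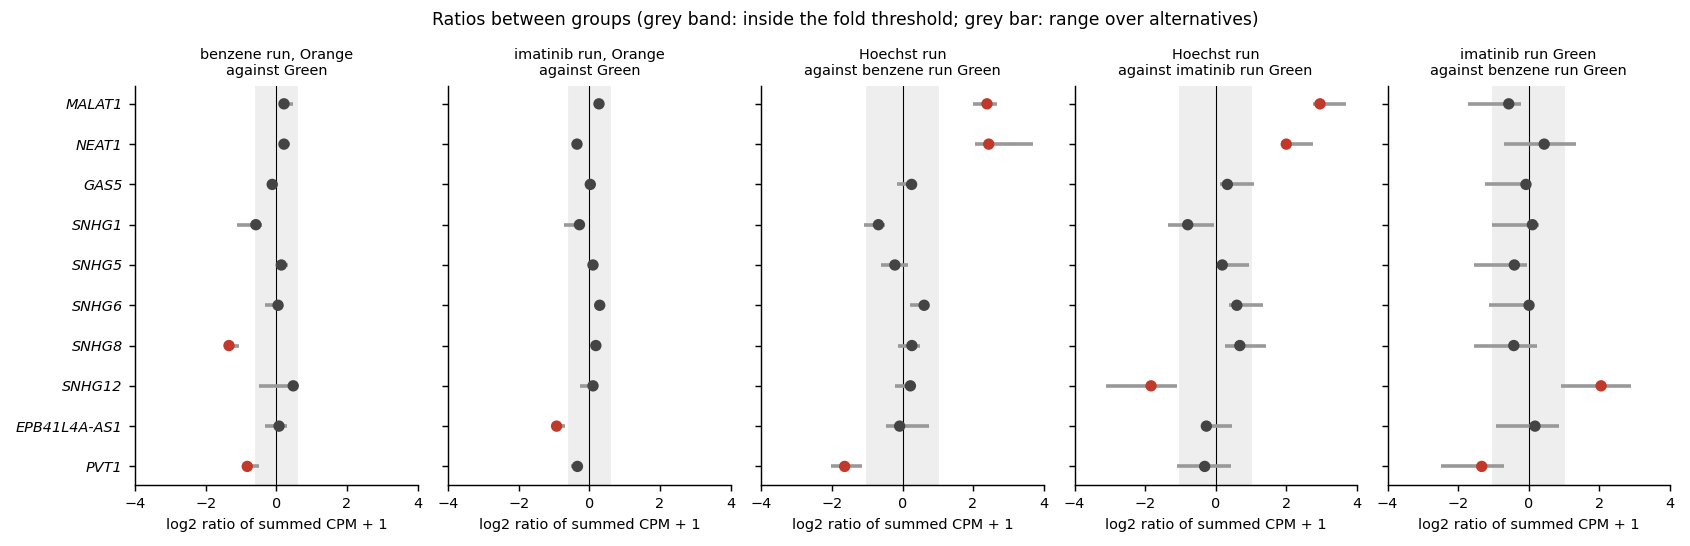
Log2 ratio of summed CPM plus 1 between groups for each lncRNA; red points are past the limit (1.5-fold for stain and drug, 2-fold for run), the grey band is inside it, and grey bars span the values under other scalings, library sets and weightings. MALAT1 and NEAT1 stand to the right in both Hoechst comparisons (2.39 and 2.44, 2.96 and 2.00), whereas in the stain comparisons only SNHG8, PVT1 and EPB41L4A-AS1 leave the band.

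SNHG8, host of an H/ACA snoRNA, had the largest difference of sums among the members with the benzene label. Its lowest, median and highest libraries had 0, 60.9 and 371 CPM in Green and 0, 19.5 and 144 CPM in Orange libraries of the benzene run. The sums were 79.6 CPM (76.9 to 82.3) and 30.7 (29.2 to 32.4), a log2 difference of -1.34 that ran from -1.39 to -1.07 over the alternatives (-1.09 with equal weight per library, where SNHG1 had -1.11). The groups overlapped, and the Orange library was the higher in 28.6% of Green and Orange pairs. In the imatinib run the sums of SNHG8 were 59.2 CPM in Green and 67.2 in Orange. PRSS12 overlaps it on the other strand.

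PVT1 sums in the benzene run were 222 CPM in Green and 124 in Orange, a log2 difference of -0.83 that shrank to -0.51, inside the 1.5-fold limit, without the library of each group with the most PVT1 reads. EPB41L4A-AS1 in the imatinib run had lowest, median and highest libraries of 0, 24.7 and 174 CPM in Green and 0, 13.9 and 73.3 CPM in Orange. Its sums were 33.4 and 17 CPM, a log2 difference of -0.93 (-0.98 to -0.68 over the alternatives), and no Orange library lay outside the range of the Green ones. In the benzene run it was 29.4 CPM in Green and 31 in Orange. Antisense EPB41L4A reads cannot be told apart from its own where the genes overlap.

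SNHG1 had more low libraries among the Orange than the Green ones in both CellTracker runs. In the benzene run its lowest, median and highest libraries had 104, 609 and 1976 CPM in Green and 2.24, 329 and 2105 in Orange libraries. In the imatinib run they had 136, 665 and 3059 in Green and 1.62, 594 and 1444 in Orange libraries. The sums differed by -0.58 and -0.28 on the log2 scale, just inside the 1.5-fold limit (0.585) in the benzene run, and without the library of each group with the most SNHG1 reads the benzene run value was -0.68, past it. Of the 34 benzene-labelled libraries, 7 lay below all 31 Green libraries, which as many libraries did for 0.115% of the 9530 genes, and 9 lay below all Green libraries but 1. Of the 45 imatinib-labelled libraries, 6 lay below all 50 Green libraries (0.517% of the 10834 genes), and again 9 below all but 1. With each library given equal weight the mean log2(CPM + 1) was lower in Orange by 1.11 and 0.73, past 1.5-fold in both runs, as for 10.9% and 8.88% of genes in that direction. The 2 Orange groups hold different drugs and share the dye, and the dye and the drugs cannot be told apart.

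MALAT1, NEAT1, GAS5, SNHG5, SNHG6 and SNHG12 stayed inside the limit in both runs. MALAT1 medians were 1304 CPM in Green and 1167 in Orange libraries of the benzene run, and 740 and 1209 in those of the imatinib run, with log2 differences of the sums of 0.21 and 0.27. The MALAT1 differences were small beside the SD between libraries, whose mean over Green and Orange was 1.56 in the benzene run and 0.96 in the imatinib run. NEAT1 differed by 0.21 and -0.35, GAS5 by -0.12 and 0.02, SNHG5 by 0.14 and 0.10, SNHG6 by 0.05 and 0.29, and SNHG12 by 0.48 and 0.10 (-0.49 and -0.26 with equal weight per library).

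Other genes of the same classes were read from lists. Of 21 other snoRNA host genes listed, 20 were in the table. With the benzene label 0 of 18 measured were higher and 4 lower, namely SNHG20 (log2 -2.60), SNHG17 (-1.95), SNHG7 (-1.41) and SNHG19 (-1.40), beside 22.7% of all genes higher and 19.7% lower, and the list's median was -0.11. With the imatinib label 1 of 19 was higher (SNHG11, 1.41) and 1 lower (SNHG10, -0.89), beside 9% and 11.1% of all genes, with a median of -0.14. Between runs 5 of 19 were higher and 2 lower in the Hoechst run than in benzene run Green libraries, beside 26.7% and 11.8% of all genes. Against imatinib run Green libraries 2 were higher and 5 lower, beside 20.6% and 13%, and in imatinib run against benzene run Green libraries 5 were higher and 0 lower, beside 19.9% and 11.9%. HSPA8, a chaperone gene whose introns hold snoRNAs, was furthest from 0 in the last 2 of these (-2.27 and 2.13), further than SNHG12. Of 12 other lncRNAs, 2 of 9 measured were higher and 3 lower with the benzene label (22.7% and 19.7% of all genes), and 1 of 11 higher and 3 lower with the imatinib label (9% and 11.1%). In the Hoechst run 5 of 10 measured were more than 2-fold higher and 0 lower than in benzene run Green libraries, beside 26.7% and 11.8% of all genes, with a median of 0.87 against 0.27. Against imatinib run Green libraries 3 of 10 were higher and 0 lower (20.6% and 13%), with a median of 0.47 against 0.13, and in imatinib run against benzene run Green libraries 2 were higher and 1 lower (19.9% and 11.9%). KCNQ1OT1, an imprinted antisense RNA that stays in the nucleus, was higher in the Hoechst run in both comparisons (2.60 and 1.89), and it was also higher with the benzene (1.95) and the imatinib label (1.42).

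The relation of the members to library quality differed by run. Over all libraries of a run, no member had a Spearman correlation with the mitochondrial share of at least 0.3 in size and the same sign in all 3 runs, and the same was true of the number of genes with more than 2 reads. These correlations describe libraries that share an experiment and a sequencing lane. For MALAT1 the correlation with the mitochondrial share was 0.31 in the Hoechst run (96 libraries), 0.02 in the benzene run (71) and 0.26 in the imatinib run (96). As mitochondrial reads are part of the CPM total, levels were also taken per non-mitochondrial reads, and the values were then 0.61, 0.10 and 0.31. In kept libraries alone MALAT1 had 0.43, 0.00 and 0.28 with the mitochondrial share by CPM. NEAT1 had 0.40, 0.10 and 0.31 on that scale. GAS5 correlated positively with 19 of 20 mitochondrial genes in all 3 runs in kept libraries, where 8.26% of all 5097 genes ranked did so. The mitochondrial genes share libraries and a common total and are not independent. In kept libraries, 5 of 10 members had positive and 2 negative values in all 3 runs by CPM, and 6 positive and 0 negative values per non-mitochondrial reads. The share of all genes with the same sign in all 3 runs was not counted, so these counts are not a trait of the members.

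With the number of genes found, EPB41L4A-AS1 and PVT1, both of low level, had positive values in all 3 runs, 0.29, 0.32 and 0.35 for EPB41L4A-AS1 and 0.48, 0.28 and 0.21 for PVT1. Among kept libraries the Hoechst run values were 0.05 and 0.20. Within each stain of the benzene run EPB41L4A-AS1 had 0.21 (Green, 36 libraries) and 0.44 (Orange, 35), and within those of the imatinib run 0.28 (51) and 0.40 (45). MALAT1 had 0.13, -0.10 and 0.07 with the number of genes found.

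The members also differed from each other in the 14 Hoechst run libraries set aside. Of these, 13 had 49.7% to 88.9% of gene reads from mitochondrial genes, where kept Hoechst libraries had at most 31%, and the other had 2.19%, with ERCC spike-ins making up 90.6% of its reads. They are defined by complexity and are not a group of the study. MALAT1 was found in all 14, with lowest, median and highest values of 12274, 34884 and 86704 reads per 1000000 non-mitochondrial reads, where the 82 kept libraries had 1143, 8239 and 50459. All 14 were above the median of the kept libraries, though the ranges overlapped. By CPM the medians were 7122 in these libraries and 7116 in kept ones, a mean log2 difference of 0.32 with 7 of 14 above the kept median. Per non-mitochondrial reads the mean log2 level was 2.09 higher, and 48 of 10308 nuclear genes measured had a larger difference, while the median gene was 1.87 lower.

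NEAT1 was also found in all 14 libraries, from 47.5 to 18366 reads per 1000000 non-mitochondrial reads (median 2836), with a mean log2 difference of 0.35 on that scale and of -1.41 by CPM, where the medians were 477 and 1263. On the first scale 429 of 10308 nuclear genes had a larger difference than NEAT1. The snoRNA hosts and PVT1 were lower in the libraries set aside, as was the median gene (1.87 lower). GAS5 had 8.60 to 716 (median 76.6) in the libraries set aside and 75 to 3122 (median 672) in kept libraries, a mean log2 difference of -2.79 per non-mitochondrial reads (-4.47 by CPM). That difference stood at percentile 28.5 of all genes measured. SNHG6, SNHG8, EPB41L4A-AS1 and PVT1 were found in 5, 5, 2 and 2 of the 14, with differences of -3.24, -2.75, -2.55 and -4.52 (percentiles 20.0, 29.2, 33.4 and 6.16). Fewer genes of any kind were found in these 14 libraries, with a median of 2012 genes over 2 reads beside 7410.5 in kept ones. The median library set aside had 626270 reads on genes beside 1284938 in kept ones, and the median mitochondrial share was 78.2% beside 12.5%. With so few other reads, members of low level can fall to no reads while MALAT1 does not. The percentiles are of all genes, not of genes of like level, and the part of level and depth was not tested. SNHG1, SNHG5 and SNHG12 differed by -0.93, -1.01 and -0.57, less than the median gene (percentiles 78.1, 76.2 and 86.1). The library rich in spike-ins held 167 EPB41L4A-AS1 reads of its 57080 gene reads, above every kept library.

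**Figure D3:**
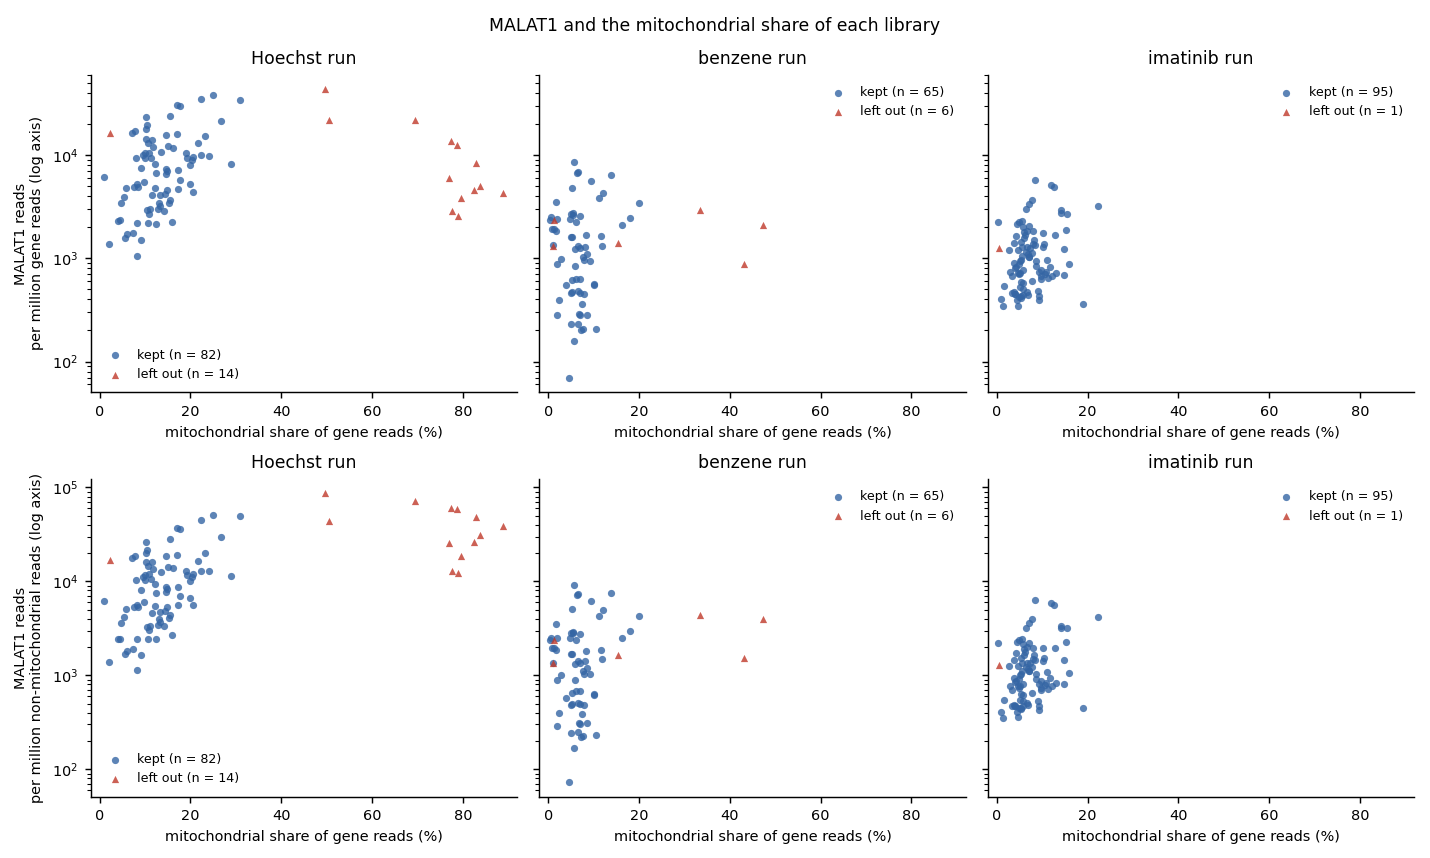
MALAT1 level (log axis) against the mitochondrial share of gene reads in each library, per 1000000 gene reads (top) and per 1000000 non-mitochondrial reads (bottom), for the 3 runs; circles are kept libraries and triangles those set aside for low complexity. In the Hoechst run the 13 triangles at 49.7% or more of mitochondrial reads reach 86704 on the lower scale, and the benzene run has a correlation of 0.10 on that scale.

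MALAT1 and NEAT1 varied together across libraries. Fresh, fixed and bulk libraries of a run were not told apart, and their part in this was not tested. Of the 45 pairs of members, this was the only pair whose Spearman correlation over kept libraries was 0.3 or more in all 3 runs, at 0.65 (82 libraries), 0.67 (65) and 0.58 (95). Within stains it was 0.70 and 0.64 in the benzene run (Green and Orange) and 0.56 and 0.64 in the imatinib run. It was also the nearest pair when all 5097 other genes found in at least 50% of kept libraries of each run were ranked by the lowest of their 3 correlations: NEAT1 stood first for MALAT1 and MALAT1 first for NEAT1. Next for MALAT1 came XIST, the RNA that coats the inactive X chromosome (lowest value 0.47), and FANCD2, of DNA crosslink repair (0.44). Next for NEAT1 came the splicing regulator TRA2A (0.36) and NKTR (0.36). In all, 23 genes reached 0.3 in all 3 runs for MALAT1 and 10 for NEAT1.

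**Figure D4:**
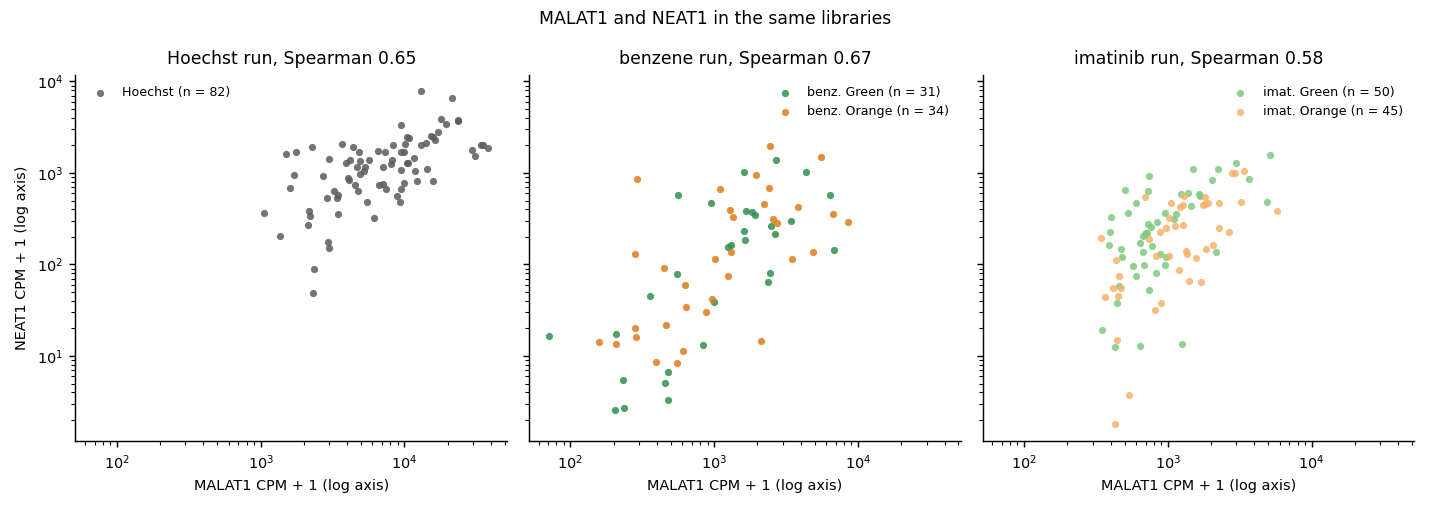
NEAT1 against MALAT1 (CPM plus 1, both axes log) in kept libraries of the 3 runs, coloured by stain group. The points rise from lower left to upper right in each panel (Spearman 0.65, 0.67 and 0.58), and Green and Orange libraries lie in the same cloud.

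The members divided by their relation to cytosolic ribosomal protein genes, whose mRNAs are among the most abundant in a cell and took a median of 5.66%, 5.22% and 5.82% of gene reads in the 3 runs. MALAT1 was negatively correlated with the sum of the 76 ribosomal protein genes (-0.34, -0.80 and -0.39), and so was NEAT1 (-0.45, -0.65 and -0.33). Because CPM is a share, an abundant gene that rises lowers the others, so the totals were also taken without MALAT1 and NEAT1 reads, and the values for MALAT1 were then -0.32, -0.80 and -0.39. Per non-mitochondrial reads the MALAT1 value in the Hoechst run was -0.24 and the NEAT1 value in the imatinib run -0.30.

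SNHG5 had the opposite sign, at 0.48, 0.63 and 0.28. Within the imatinib run it was 0.50 in Green and 0.0025 in Orange libraries, and within the benzene run 0.71 and 0.53. Of 75 ribosomal protein genes ranked, 63 correlated positively with SNHG5 in all 3 runs and 0 negatively, where 19.4% of all 5097 genes were positive in all 3. Its 3 most similar genes were all of this class: RPS6 (lowest value 0.38), RPS12 (0.36) and RPS18 (0.34). PVT1 and SNHG6 had 60 and 58 of 75 positive in all runs, with 28.5% and 12.5% of all genes, and NEAT1 and MALAT1 had 57 and 46 negative, with 27.9% and 25.4% of all genes. These genes share libraries and a common total and are not independent.

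GAS5 and SNHG1 were only weakly related to the ribosomal sum, with correlations of -0.22 to 0.15 and -0.11 to 0.02. The same held for SNHG8 (-0.15 to 0.17) and EPB41L4A-AS1 (0.01 to 0.25). The genes most similar to GAS5 and SNHG1 were also only weakly so: MT-ND1 (lowest value 0.28), NPIPA1 (0.23) and MT-ND4L (0.23) for GAS5, and SFPQ (0.24), CCNL1 (0.19) and EZH2 (0.18) for SNHG1. SFPQ and CCNL1 act in nuclear RNA processing, and EZH2 is the methyltransferase of the Polycomb complex. The first genes for the others were the pseudogene RPS18P12 for SNHG6 (0.24), HNRNPA0 for SNHG8 (0.22), ANKRD36C for SNHG12 (0.35), WDR45B for EPB41L4A-AS1 (0.23) and RPS13 for PVT1 (0.28).

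**Figure D5:**
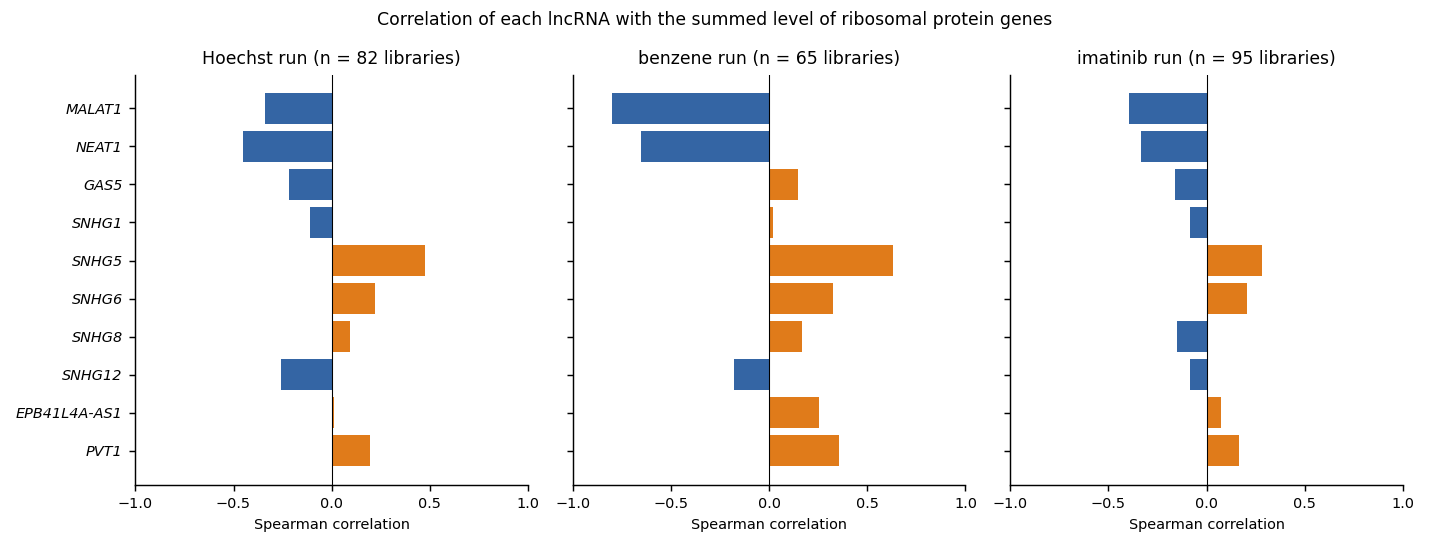
Spearman correlation over kept libraries between each lncRNA and the summed level of 76 ribosomal protein genes, by run; bars start at 0, blue is negative and orange positive. MALAT1 and NEAT1 are negative in all 3 runs (-0.80 and -0.65 in the benzene run) and SNHG5 is positive in all 3 (0.63 in the benzene run).

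Because SNHG5 varied with ribosomal protein genes, the starts of the host genes are shown. Ribosomal protein mRNAs begin with a terminal oligopyrimidine (TOP) start, a C followed only by C and T, through which translation is tuned to growth signals, and several snoRNA hosts are known to carry such starts. The lines give 20 bases before and 30 bases from the first transcribed base of RefSeq (GRCh38.p14), 5′ to 3′ on the strand of the gene, and capitals mark a run of at least 5 pyrimidines that opens with C at the first base.
SNHG5: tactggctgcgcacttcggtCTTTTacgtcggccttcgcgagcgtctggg
SNHG12: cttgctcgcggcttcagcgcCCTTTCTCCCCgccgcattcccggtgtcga
SNHG1: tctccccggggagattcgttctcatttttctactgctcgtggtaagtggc
SNHG8: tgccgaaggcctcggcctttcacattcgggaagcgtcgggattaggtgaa
GAS5: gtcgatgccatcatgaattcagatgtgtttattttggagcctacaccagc
The windows are chr6:85678704-85678753 (minus strand), chr1:28581844-28581893 (minus), chr11:62855856-62855905 (minus), chr4:118278742-118278791 (plus) and chr1:173869016-173869065 (minus), in that order, each reaching from the proximal promoter into the first exon. SNHG5 opens with 5 pyrimidines and SNHG12 with 11, although SNHG12 was negatively correlated with the ribosomal sum (-0.26, -0.18 and -0.08), with 0 of 75 ribosomal protein genes positive and 40 negative in all 3 runs. Such a run was found in 2 of the 6 member hosts in the table, the host without a line above being EPB41L4A-AS1. The shares were 59.2% of 76 starts of 61 ribosomal protein genes and 4.07% of all 35116 starts. All starts were read on the strand of the gene only. The member count rests on few annotated starts matched to the exact base, so it cannot be set against these shares. RPS6, RPS12 and RPS18, the 3 genes most like SNHG5, had runs of 9, 10 and 9 pyrimidines. A match describes the letters at an annotated start, and a start without it says nothing about how that RNA is translated. Other starts of these hosts were not read, and pyrimidines that begin past the annotated first base are not counted. A window without a run, as for GAS5 and SNHG1, therefore does not show that the gene lacks a TOP start.

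In the files' own build (GRCh37), with GENCODE v44lift37 positions, MALAT1 (ENSG00000251562) spans chr11:65265111-65275544 and NEAT1 (ENSG00000245532) chr11:65190245-65213011, both on the plus strand and with a canonical transcript of 1 exon. SNHG5 (ENSG00000203875) spans chr6:86360209-86388650 on the minus strand with 6 exons, and SNHG1 (ENSG00000255717) chr11:62619450-62623425 on the minus strand with 11. SNHG12 (ENSG00000197989) spans chr1:28905050-28909644 and GAS5 (ENSG00000234741) chr1:173827697-173838020, both on the minus strand. GAS5 shares its span with GAS5-AS1 and ZBTB37 on the other strand, so part of its count is uncertain.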

How the data were processed

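Libraries were made with SMARTer chemistry on the C1 system and Nextera XT, a method that does not mark strand. The authors trimmed reads with skewer and aligned them to GRCh37 plus the spike-in sequences using HISAT2. Duplicates were marked with Picard (1.92). Reads with a single alignment were assigned to Ensembl genes by featureCounts from Subread (versions from the submitters' processing notes, 1.5.0 for Subread). The deposited table holds raw read counts per gene, used as deposited. Whether marked duplicates were still counted is not given in the sources used here. Reads carry no molecular identifiers, so intervals cover counting error only. In the benzene run 4 columns matched no title and 4 titles matched no column, and these were not used.

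CPM was computed per 1000000 reads on genes without the 92 ERCC rows. Ratios are log2 of summed CPM with a pseudocount of 1, called past 1.5-fold (stain and drug) or 2-fold (run). Genes measured were those found in at least 20% of libraries, of both groups together (stain and drug) or of either group (run). Spearman correlations were made on log2(CPM + 1) and carry no p, since libraries are not replicates. Gene names came from GENCODE v44lift37 (55665 identifiers matched, 99.0% of reads), and start sequences from RefSeq on GRCh38.p14, where those of NEAT1, SNHG6 and PVT1 were not used. TMM factors were from edgeR (4.0.16) and median-of-ratios factors from DESeq2 (1.42.0), in R 4.3.3, both on summed counts and with no test. Other steps used Python 3.11.15, numpy 2.4.6, pandas 2.3.3, scipy 1.17.1 and matplotlib 3.10.9, and were tested on simulated data. No 2 libraries had identical counts. All 10 members are named, with the 3 most similar genes of MALAT1, NEAT1, GAS5, SNHG1 and SNHG5, the first of the others, and at most 4 genes per list. The low tail of SNHG1 was singled out after its values were seen. Some marker and neighbouring genes are not reported here. Members and lists were chosen with earlier results of these data known.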

Additional observations from a re-analysis of the deposited data

How the results depend on the processing

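Of 1142 alternative values for 192 results, 1068 moved by less than the spread between libraries (for counts, by less than 1.5 times), 70 moved by more and 4, past the limit as reported, changed sign. Of 99 alternative values for the member ratios past their limit, 0 changed sign and 5 came inside it. Of 351 for those inside it, 40 changed sign and 21 passed it. Over the 9 alternatives of each ratio, MALAT1 and NEAT1 stayed past 2-fold higher in the Hoechst run in both comparisons (lowest values 1.99 and 1.87 on the log2 scale). ERCC scaling shifted the median of all genes by 0.70 for Hoechst against imatinib run Green, where 6 members were then past 2-fold instead of 3, and by -1.07 for imatinib run Green against benzene run Green, where 7 were past instead of 2. The median log2 difference of all genes was then 0.83 and -0.94. The share of all genes past 2-fold was not counted with this scaling, so these counts are not a trait of the members. The shift of Hoechst against benzene run Green was -0.38. For imatinib run Green against benzene run Green, 1 member was past 2-fold with a stricter limit of 60% on the top 500 genes and 1 without the library with the most reads of the gene. With equal weight per library, 5 members were past 2-fold for Hoechst against imatinib run Green and 2 past 1.5-fold in the imatinib run. The latter, SNHG1 and EPB41L4A-AS1, were lower in Orange, as were 8.88% of all genes. For Hoechst against imatinib run Green the share of all genes was not counted with equal weight. Thinning left 4 members found in at least 90% of benzene-labelled libraries. Without thinning only SNHG12 (76.5%) and EPB41L4A-AS1 (55.9%) were under 90% there, so detection of other members also depended on depth. By Pearson correlation 1 member passed 0.3 in all 3 runs for genes over 2 reads. The correlation of NEAT1 with ribosomal protein genes was -0.17 in all Hoechst libraries, and that of SNHG5 in the imatinib run 0.50 in Green and 0.0025 in Orange libraries. In the Hoechst run, the 4 that changed sign were, with the mitochondrial share in kept libraries per non-mitochondrial reads, EPB41L4A-AS1 (-0.32 to 0.0236) and PVT1 (-0.31 to 0.00569), and, with genes over 2 reads in kept libraries, GAS5 (0.34 to -0.0364, and to -0.0359 per non-mitochondrial reads). The cause was not tested. 4 of the alternatives, such as totals without MALAT1 and NEAT1 reads, were chosen after seeing the data. No paired analysis was possible because the labels give no replicate numbers that tie libraries of different groups and no test was made. Depth limits EPB41L4A-AS1, PVT1 and SNHG12, whose low values rest on few reads per library.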
